A study of Rattus norvegicus with 3 samples.

Results

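Oct4 (gene symbol Pou5f1), Sox2 and 6 genes that act beside them in pluripotent cells, namely Sox3, Nr0b1, Dppa3, Dppa4, Tbx3 and Esrrb, were compared between rat iPS F65 cells and mix1, a mixture of adult rat cells. Induced pluripotent stem (iPS) cells are body cells reprogrammed to a state like that of embryonic stem cells. The 8 genes were taken by name, and 10 of the 41012 gene probes on the array measured them, out of 35508 genes and transcripts in all. Sox3 and Dppa3 had 2 probes each and are given probe by probe. Nr0b1, Sox2, Dppa3, Dppa4 and Pou5f1 were higher in iPS F65, the T-box factor Tbx3 was 41.4-fold lower, the 2 probes of Sox3 went in opposite directions, and Esrrb stayed near background in both kinds of cell.

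Each of the 3 samples of untreated iPS F65 cells was labelled with Cy3 and hybridised to its own 2-colour Agilent array together with Cy5-labelled mix1, and the arrays lay on 1 slide. The iPS cells had been kept on irradiated mouse embryonic fibroblasts, and the labels do not say whether these feeder cells were removed before RNA was taken. Mix1 combined bone marrow cells with primary fibroblasts of the ear, both rat and both cultured, and is 1 control sample, so every p-value leaves out the spread of the adult cells. The dyes were never swapped, so dye and cell type cannot be told apart, and the labels do not say that the 3 iPS samples came from separate cultures, so the spread may be technical. Since mix1 is a mixture, a lower level in it and fewer cells that express a gene cannot be told apart.

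Oct4 and Sox2 are transcription factors that bind next to each other on DNA, through a POU domain and an HMG box, and in mouse embryonic stem cells they hold much of the pluripotency network in place, including their own genes. Oct4 is normally silent in adult somatic cells, whereas Sox2 and Sox3 are also active in neural progenitors. Nr0b1 and Esrrb are orphan nuclear receptors of mouse embryonic stem cells, Dppa3 and Dppa4 are nuclear proteins of early embryos and germ cells, and Tbx3 is a T-box factor active in mouse stem cells and in many mesenchymal tissues. Oct4 and Sox2 are also the factors most widely used for reprogramming. The labels do not say how F65 was made, and whether the probes read the cells' own genes or introduced copies was not tested.

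The probes below are shown because the results turn on them, and each reads 60 bases, 5′ to 3′, as deposited with the scanner files. The Sox2, Sox3 and Tbx3 probes each match 1 unbroken stretch of the genome by their length. The positions of Pou5f1 and of both Dppa3 probes span more than the probe's own length (582, 598 and 2049 bases), so these sequences are interrupted in the genome. Positions are those of the array files, on build rn3, and no annotation of that build was used here.
Pou5f1 A_44_P156952, chr20_random:3256-3837, minus strand: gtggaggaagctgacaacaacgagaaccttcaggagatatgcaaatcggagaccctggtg
Sox2 A_44_P506024, chr2:120914687-120914746, plus strand: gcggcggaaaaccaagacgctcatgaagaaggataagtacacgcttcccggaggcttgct
Sox3 A_44_P552852, chrX:146583867-146583926, minus strand: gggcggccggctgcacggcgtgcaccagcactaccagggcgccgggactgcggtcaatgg
Dppa3 A_44_P775640, chr4:159328343-159330391, plus strand: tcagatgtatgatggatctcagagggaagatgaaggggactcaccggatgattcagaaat
Dppa3 A_44_P433875, chr4:159329834-159330431, plus strand: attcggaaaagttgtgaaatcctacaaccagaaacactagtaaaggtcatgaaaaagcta
Tbx3 A_44_P222030, chr12:38018939-38018998, minus strand: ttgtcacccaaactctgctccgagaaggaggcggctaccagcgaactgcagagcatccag

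The other Sox3 probe, A_42_P509950, lies at chrX:146583204-146583263 on the minus strand, 603 bases from the probe printed above. The probe of Nr0b1, A_44_P472776, lies at chrX:73083479-73083538 on the plus strand, that of Dppa4, A_44_P728688, at chr11:53905641-53905700 on the minus strand, and that of Esrrb, A_44_P381969, at chr6:110626949-110627008 on the plus strand. The array files name the Sox2, Sox3 and Dppa4 probes by older, provisional names, which a table of RefSeq genes ties to these symbols.

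A probe's ratio is the log2 of the scanner software's processed signal in iPS F65 over that in mix1 on the same array. A probe was tested if its signal was well above background, by the software's own flag, on all 3 arrays in iPS F65 or on all 3 in mix1. It was called higher or lower if limma's moderated test gave a Benjamini-Hochberg adjusted p under 0.05 over all 25801 tested probes and the ratio was at least 2-fold. Of the 10 probes, 8 were tested, covering 7 of the 8 genes. Among these 8, 6 were called higher and 2 lower. Pou5f1 and the Dppa3 probe A_44_P775640 entered the test through iPS F65 alone, and the Sox3 probe A_44_P552852 through mix1 alone. Each entered through its brighter side, so these calls lean on that filter. Over all tested probes 31.2% were called higher and 24.1% lower, 55.3% in all, so a call by itself was common on these arrays, and the median log2 ratio over all tested probes was 0.27. The arrays correlated with each other at r = 0.993 to 0.994 across tested probes, which are not independent replicates. Between 57.1% and 61.2% of gene spots were well above background in iPS F65 and between 58.3% and 62.1% in mix1, and no spot was saturated.

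**Figure D1:**
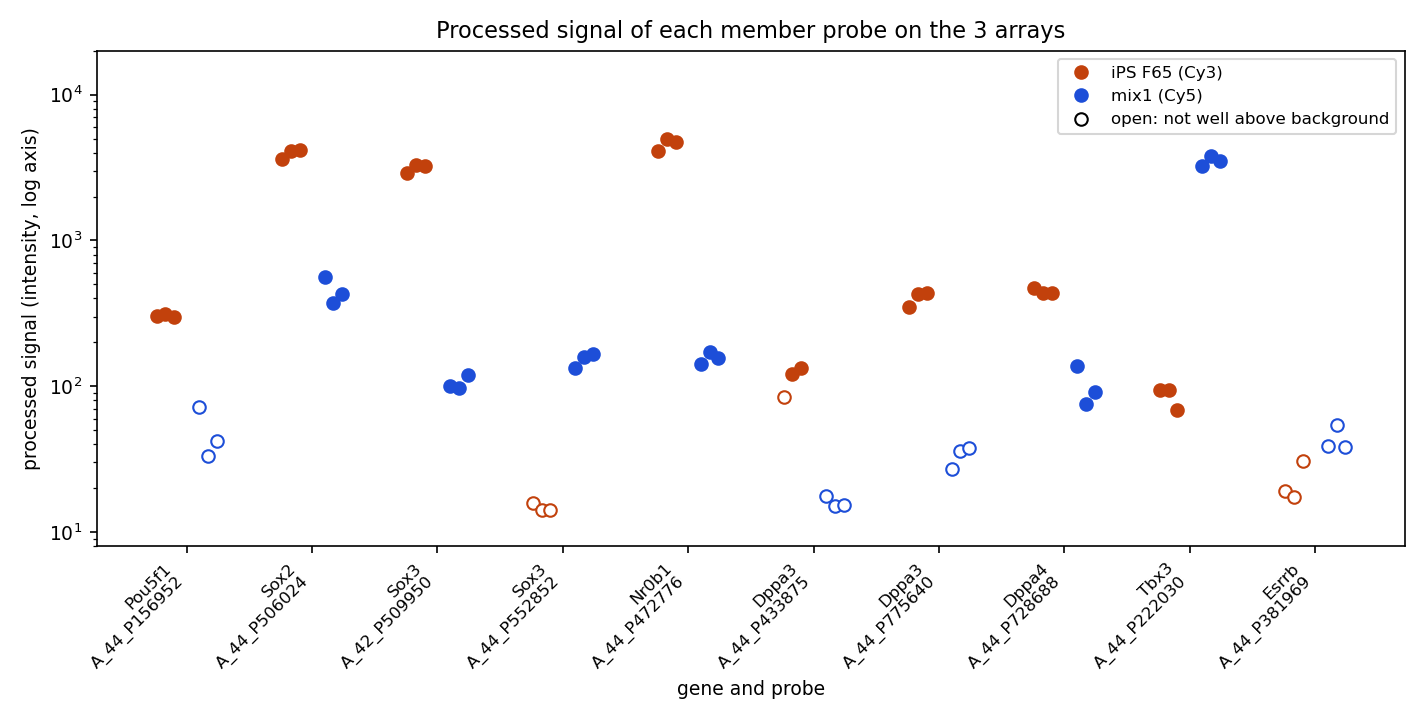
Processed signal (vertical axis, intensity on a log scale) of each of the 10 probes on the 3 arrays, with iPS F65 left of mix1. Filled points were well above background and open points were not. The 3 iPS F65 points of Nr0b1, Sox2 and the Sox3 probe A_42_P509950 lie far above those of mix1, those of Tbx3 lie far below, and all 6 points of Esrrb are open.

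Pou5f1, which encodes Oct4 itself, gave a steady but weak signal in iPS F65. Its processed signal was 303, 311 and 298 on the iPS F65 channels of the arrays of replicates 1, 2 and 3, against 71.7, 33.4 and 42.0 in mix1. All 3 iPS F65 signals were well above background and none of those in mix1 was. Before any correction the spot was brighter than 99.3% to 100% of the 153 negative control spots in iPS F65, and brighter than 96.1% to 98.7% of them in mix1. The log2 ratios were 2.08, 3.22 and 2.83, with a mean of 2.71 ± 0.58 (SD, n = 3; limma adjusted p = 0.00176). Because no mix1 signal passed the background flag, the difference is given as a bound. This is the mean level in iPS F65 over the lowest level counted as above background in mix1. With processed signals it was at least 4.53-fold higher in iPS F65. A bound from signals after normexp background correction and loess scaling was at least 2.49-fold. Here and below, a bound holds only under the scaling and background correction it was made with, and is not a limit across them.

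Sox2, the HMG-box partner of Oct4, was bright in iPS F65 and also measurable in mix1. Its processed signal was 3627, 4132 and 4169 in iPS F65 against 563, 375 and 431 in mix1, and all 6 were well above background. The mean log2 ratio was 3.14 ± 0.40 (SD, n = 3), which is 8.82-fold higher, with a 95% interval of 2.57 to 3.71 (limma adjusted p = 0.000403). The single ratios were 2.69, 3.46 and 3.27. The lowest came from the array with the highest signal in mix1.

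**Figure D2:**
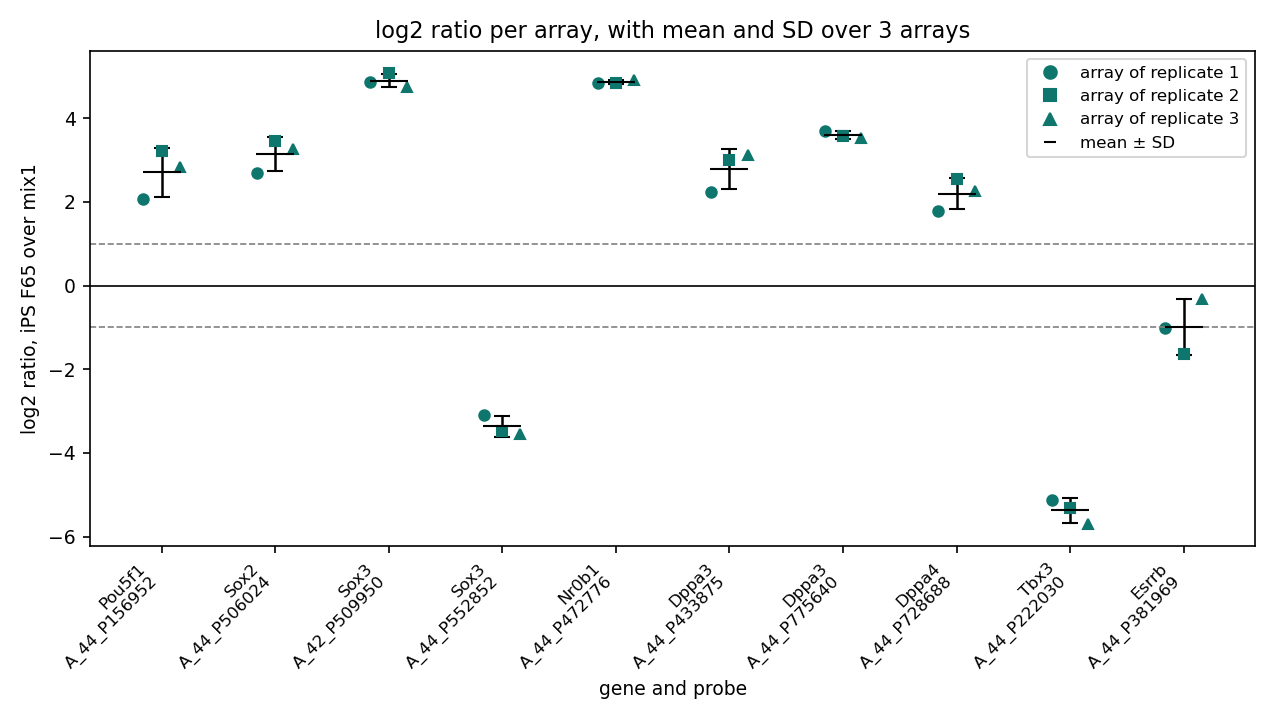
log2 ratio of iPS F65 over mix1 (vertical axis) for each probe on each array, with the mean and SD over 3 arrays. Dashed lines mark 2-fold. For Pou5f1, Sox2 and Dppa4 the array of replicate 1 gives the lowest of the 3 ratios, while the 3 points of Nr0b1 almost coincide.

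On the array of replicate 1 the mix1 signals of Pou5f1, Sox2 and Dppa4 stood above those of the other arrays, against the general trend. The median tested probe had a log2 mix1 signal on that array that differed by -0.21 from the mean of the other arrays. The same difference was 0.94 for Pou5f1, 0.72 for Dppa4 and 0.49 for Sox2, at percentiles 99.6, 99.4 and 99.1 of all tested probes. It was -0.21 for Nr0b1, -0.11 for the Sox3 probe A_42_P509950 and -0.45 for the Dppa3 probe A_44_P775640. In iPS F65 the differences were -0.01 for Pou5f1, 0.12 for Dppa4 and -0.19 for Sox2, against a median of -0.23. These 3 probes were picked out after their values were seen, and the cause was not tested. Without replicate 1 the mean ratio was 3.02 for Pou5f1, 2.40 for Dppa4 and 3.37 for Sox2, each still called.

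Sox3, a close relative of Sox2 encoded on the X chromosome, gave 2 opposite answers. At probe A_42_P509950 the signal was 2922, 3296 and 3249 in iPS F65 against 100, 97.7 and 120 in mix1, and all 6 were well above background. The mean log2 ratio there was 4.90 ± 0.16 (SD, n = 3), which is 29.9-fold higher (limma adjusted p = 1.46e-05), the 149th highest of all tested probes. At probe A_44_P552852, printed above, the iPS F65 signals were 15.7, 14.2 and 14.2, none well above background and all 3 set by the software to a floor value, against 133, 158 and 165 in mix1, all well above background. The ratios there averaged -3.36 ± 0.25 on the log2 scale (SD, n = 3; limma adjusted p = 8.70e-05). With iPS F65 at floor values, that SD and p-value do not measure the spread of Sox3 in iPS F65. As a bound the level was at least 2.30-fold lower in iPS F65. From signals after normexp and loess the bound was at least 1.88-fold lower, short of 2-fold. Both probes lie on the same strand and carry the same transcript name in the array files, so no single direction is given for the gene.

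The Sox3 probes differed in base composition, with 43.3% G and C in the bright one and 75.0% in the dim one. Probes of the array followed such a trend as a whole. The median log2 ratio of iPS F65 over mix1 was 0.82 over the 8239 tested probes with under 40% G and C, 0.34 over 11582 probes with 40% to under 50%, -0.29 over 5530 with 50% to under 60%, -0.49 over 332 with 60% to under 70%, and -0.76 over 118 with 70% or more. Its part in the Sox3 difference was not tested. Opposite calls within 1 gene were rare, at 13 of the 2908 genes with a symbol and more than 1 tested probe (0.447%), Sox3 among them.

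Nr0b1, an X-linked orphan nuclear receptor that in mouse stem cells binds Oct4 and restrains its activity, had the most even ratios of the 8 tested probes. Its signal was 4084, 4945 and 4734 in iPS F65 against 142, 172 and 156 in mix1, with all 6 well above background. The log2 ratios of 4.85, 4.84 and 4.93 averaged 4.87 ± 0.05 (SD, n = 3), a 29.3-fold higher level (limma adjusted p = 5.48e-06), the 156th highest of all tested probes. The signal in mix1, though low, was brighter before correction than 98.7% to 100% of the negative control spots.

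Dppa3, a maternal factor that in the mouse protects DNA methylation in the early embryo, was seen at 1 of its probes. At A_44_P775640 the signal was 352, 429 and 434 in iPS F65, all well above background, against 27.0, 35.7 and 37.8 in mix1, none above background. Its log2 ratio averaged 3.61 ± 0.09 (SD, n = 3; limma adjusted p = 1.02e-05), and the bound was at least 6.02-fold higher in iPS F65, or at least 2.76-fold from signals after normexp and loess. At A_44_P433875 the signal was 83.7, 121 and 133 in iPS F65, well above background on 2 of 3 arrays, against floor values of 17.6, 15.1 and 15.2 in mix1. This probe did not reach the test. Its log2 ratio over those floor values averaged 2.80 ± 0.48 (SD, n = 3), and any signal above the floor makes such a ratio positive. The bound was at least 1.66-fold, or at least 1.36-fold from signals after normexp and loess. This probe is therefore not taken as a second measure of direction.

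Dppa4, which in mouse embryonic stem cells works in a pair with Dppa2 on chromatin, was low but measurable in both kinds of cell. Its signal was 475, 439 and 438 in iPS F65 against 137, 75.4 and 91.5 in mix1, all 6 well above background. Its log2 ratio averaged 2.20 ± 0.38 (SD, n = 3), which is 4.59-fold higher, with a 95% interval of 1.67 to 2.73 (limma adjusted p = 0.000923). No probe was named Dppa2, its partner.

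Tbx3 ran the other way. Its signal was 93.5, 94.7 and 68.5 in iPS F65 against 3238, 3775 and 3533 in mix1, all 6 well above background. The mean log2 ratio was -5.37 ± 0.29 (SD, n = 3), which is 41.4-fold lower in iPS F65 (limma adjusted p = 4.12e-05), the 841st lowest of all tested probes. Genes of the adult cells moved with it. All 11 fibroblast markers measured were lower in iPS F65, where 24.6% of all genes tested were lower. The 9 that were well above background in iPS F65 on all 3 arrays had log2 ratios of -10.09 to -4.36. Thy1 was at least 45.2-fold and Postn at least 481-fold lower. The summed processed signal of the 11 was 19200 to 24982 in iPS F65 against 2335229 to 2972229 in mix1. Of 10 macrophage and leukocyte markers 9 were lower, with a summed signal of 4044 to 5083 in iPS F65 against 267576 to 310843 in mix1, and Ptprc was not called (adjusted p = 0.0547, limma; called without replicate 2). The part of these cells, or of mouse feeder RNA, in the ratio of any of the 8 genes was not tested.

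Esrrb, an orphan receptor that sustains self-renewal of mouse embryonic stem cells, could not be compared. Its signal was 19.2, 17.3 and 30.8 in iPS F65 against 38.6, 54.2 and 38.4 in mix1, and none of the 6 was well above background. Before correction the spot was brighter than 87.6% to 94.1% of the negative control spots in iPS F65 and than 96.1% to 96.7% of them in mix1. The mean log2 ratio of -0.99 ± 0.66 (SD, n = 3) is a ratio of 2 dim signals. A difference in Esrrb was not detectable at these signals.

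**Figure D3:**
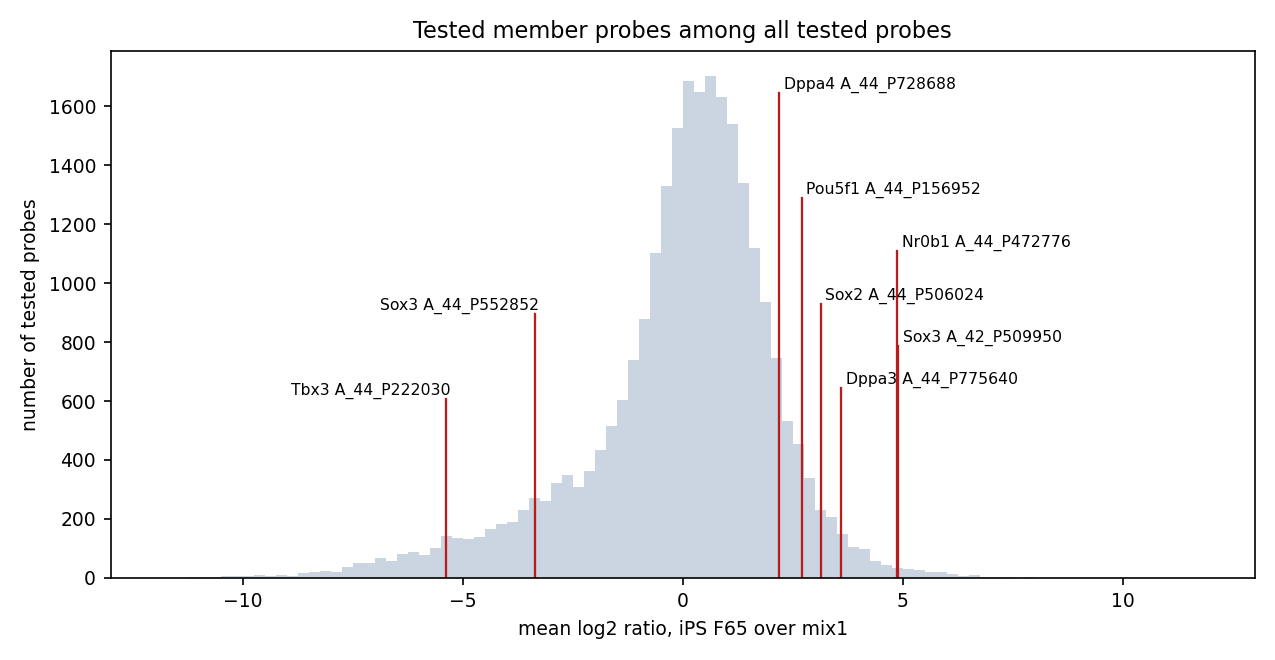
Number of tested probes (vertical axis) by mean log2 ratio of iPS F65 over mix1 (horizontal axis, 25801 probes), with a line at each of the 8 tested probes. Line heights only separate the labels. The Sox3 probe A_42_P509950 and Nr0b1, at 4.90 and 4.87, lie in the thin upper tail, while Tbx3, at -5.37, lies in a longer lower tail.

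The size of every ratio depended on the scaling and background correction, while no tested probe of the 8 genes changed direction. With normexp background correction and loess, after local backgrounds marked as uneven were replaced, the log2 ratios were 3.81 for Nr0b1, 3.66 and -1.40 for the Sox3 probes, 2.47 for Sox2, 1.82 for Dppa3, 1.43 for Pou5f1, 1.30 for Dppa4 and -4.80 for Tbx3, and each remained called. With every local background used as given, Nr0b1 (2.56, limma adjusted p = 0.0345) and Sox2 (1.86, limma adjusted p = 0.0229) were still called and the other 6 probes were not. Pou5f1 was then at 0.61 with an adjusted p of 0.243 (limma). With no background subtraction the dim Sox3 probe, at -0.997, fell just short of the 2-fold limit.

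**Figure D4:**
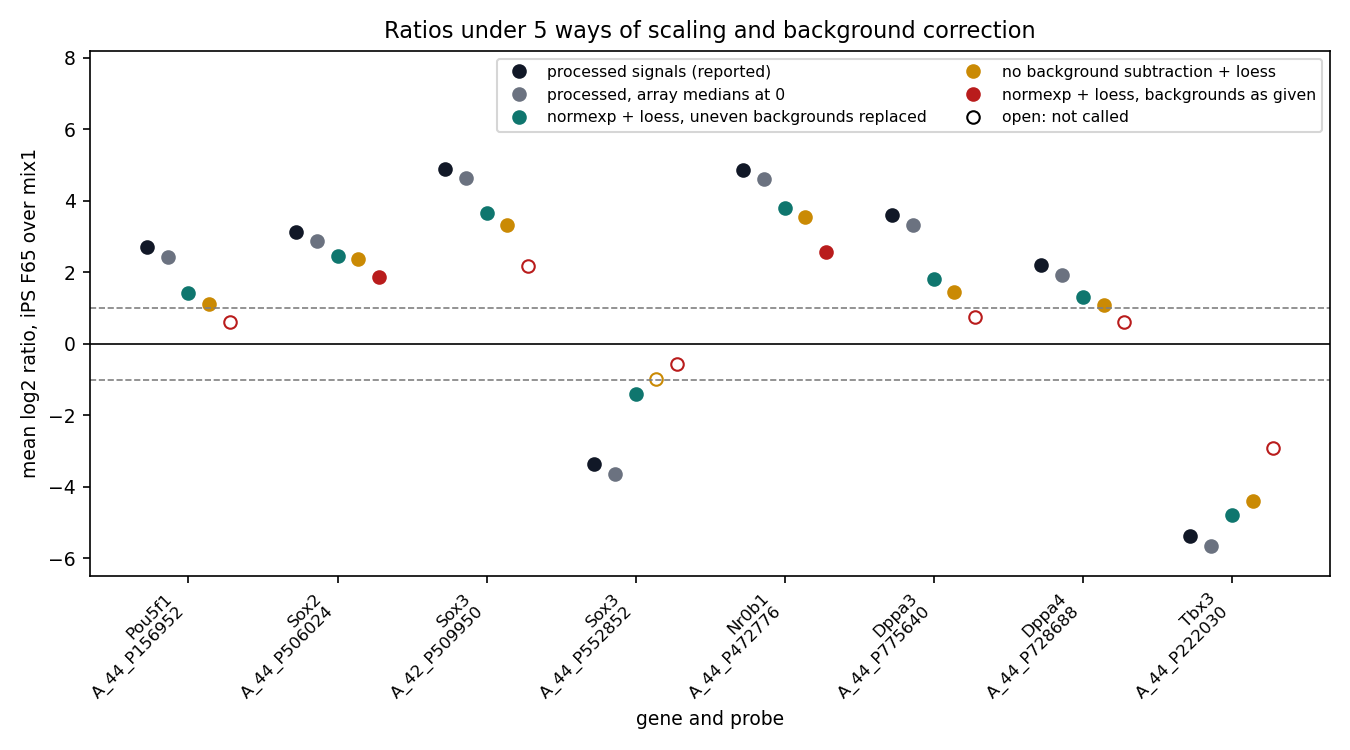
Mean log2 ratio of iPS F65 over mix1 (vertical axis) of the 8 tested probes under 5 ways of scaling and background correction. Filled points were called and open points were not, and dashed lines mark 2-fold. In the ways that used loess, values lie nearer 0 than as reported in each of the 8 probes. With array medians at 0, Tbx3 (-5.65) and the dim Sox3 probe (-3.64) lie further from 0 and the others nearer. Nr0b1 and Sox2 are the probes that stay filled throughout.

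Genes that work with or under Oct4 and Sox2 in embryonic stem cells were described from a list of 50. For 37 of these a probe was named, and 29 were measured. Each gene is represented by its brightest tested probe. In iPS F65, 14 of the 29 were higher, 1 was lower and 14 were neither, with a median log2 ratio of 0.95, beside 31.0% higher, 24.6% lower (55.6% in all) and a median of 0.25 over all 21775 genes tested. The 14 genes that were neither were short of 2-fold, and among all 29 only Hdac1, a histone deacetylase (0.00), had an adjusted p above 0.05 (0.870, limma). Such p-values were common on these arrays, since 24680 of all 25801 tested probes had an adjusted p under 0.05. The count of higher genes depended on the scaling, and was 7 of 29 with normexp and loess, beside 18.4% of all genes, and 9 of 29 with each array's median set to 0, beside 24.6%.

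Arid3b, an AT-rich interaction domain factor, was higher by at least 5.56-fold (log2 ratio 4.53 ± 0.18, SD, n = 3). Rif1, which acts in replication timing and DNA repair, had a log2 ratio of 2.93 ± 0.11 (7.60-fold). Zscan10, a zinc finger protein that in mouse stem cells binds Oct4 and Sox2, had a mean of 2.62 with a wide SD of 1.13 (limma adjusted p = 0.0136), and its signal in mix1 was above background on 1 of 3 arrays. Mybl2, a factor of the cell cycle, was at 2.00 ± 0.03 (3.99-fold). Spp1, a secreted phosphoprotein of bone and macrophages that is also a target of Oct4 and Sox2 in the mouse, was lower, at -6.04 ± 0.03 (65.6-fold). No probe was named Nanog, Zfp42, Sall4, Utf1 or Tdgf1, so these central genes were not analysed here.

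**Figure D5:**
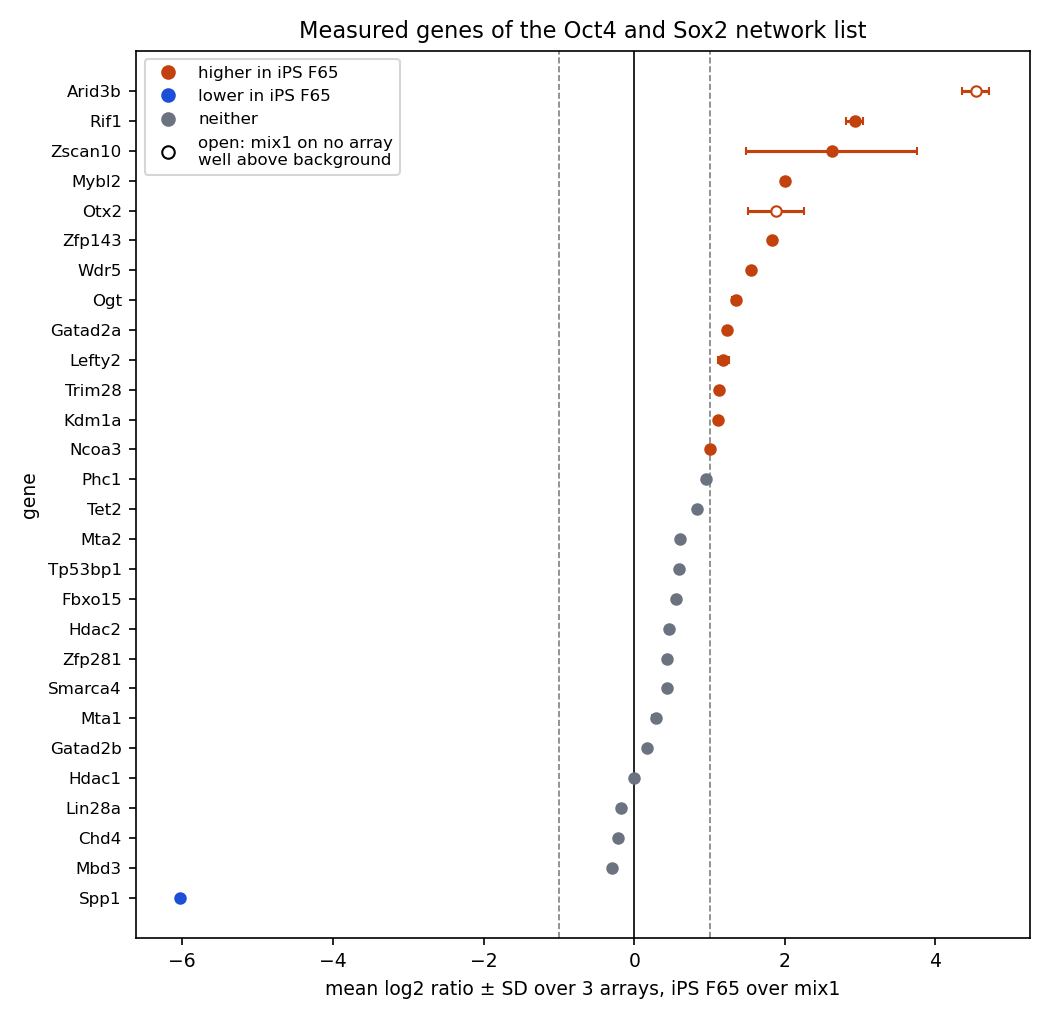
Mean log2 ratio of iPS F65 over mix1 (horizontal axis) with its SD over 3 arrays for 28 of the 29 measured genes of the list, with dashed lines at 2-fold. Open points had no mix1 signal well above background on any array. Arid3b and Rif1 have the highest ratios of the genes drawn, and Spp1 stands alone at the low end.

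Of 10 markers of pluripotent cells 5 had a probe and 4 were measured, which leaves a thin check of the cell label. Over all genes tested 31.0% were higher and 24.6% lower, and the counts of the small lists below are read as descriptions beside these shares. The epithelial adhesion gene Epcam was at least 28.3-fold higher in iPS F65 and Pou5f1 was higher, Lin28a was not called at -0.17, and the alkaline phosphatase Alpl was lower at -1.79. Of 4 measured neural progenitor markers, Pax6 was higher and Nes (-1.37) and Dll1 were lower. Trophectoderm markers were higher in 0 of 4 cases and lower in 3. Of 4 primitive endoderm markers Afp was higher, at 5.01, and 3 were lower. Of the control genes, Gapdh was at -0.73 and -0.91 at its 2 probes and not called, and Actb was lower at both of its probes, at -3.54 and -3.87.

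Genes that Oct4 binds in stem cells and that are switched on in differentiation were mostly unmeasured, at 9 of 25. The eye and neural factor Pax6 was at least 38.8-fold higher, the neurogenic factor Neurog1 at least 5.38-fold higher, and Isl1, a LIM homeobox factor, had a log2 ratio of 3.30 ± 0.55 (SD, n = 3). Tfap2c (at least 4.66-fold lower), Gata6 (-2.93), Gata2 (at least 2.38-fold lower) and Mixl1 (-1.28) were lower, and 2 genes were neither. These 3 higher and 4 lower of 9 stand beside 31.0% and 24.6% over all genes tested, and the median over the 9 genes was -0.49, beside 0.25.

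By the distance between the 3 ratios of a gene and those of 11415 other genes with a symbol, the genes most like Sox2 were Mob4, P2ry1 and Mob3b, and those most like Nr0b1 were Ct55, Cyp2j3 and Slc9b1. The bright Sox3 probe was nearest to Slc7a3, Ttpa and Afp, and Tbx3 to Ifi47, Tcea3 and Matn4. Over 3 arrays of a single comparison, this distance mainly finds genes with a similar fold. Shared regulation was not tested.

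Promoter sequences were at hand for 5 of the 8 genes (Sox2, Sox3, Nr0b1, Dppa3 and Esrrb), from RefSeq on build GRCr8, 250 bases before to 50 bases after the start of the gene. They were searched on both strands for the octamer that POU factors bind, ATGCAAAT, for its first 7 letters, ATGCAAA, which every octamer also holds, and for the Sox motifs CATTGT and CTTTGT. The octamer was in none of the 5 and in 1.78% of all 33469 promoters. ATGCAAA was in the promoter of Sox2 alone among the 5 and in 4.68% of all. CATTGT was in that of Esrrb alone and in 13.2% of all, and CTTTGT was in none of the 5 and in 18.8% of all. The Sox2 match starts 159 bases before the start of the gene, and is shown because Sox2 is known as a target of Oct4, with the match in capitals (plus strand, chr2:119464946-119465005).
Sox2 promoter: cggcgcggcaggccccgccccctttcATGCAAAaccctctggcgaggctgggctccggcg
These matches describe letters in the window and not binding, which was not measured here.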

How the data were processed

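RNA of 3 iPS F65 samples (Cy3) and of mix1 (Cy5) was measured on 3 Agilent arrays of 1 slide and 1 scan, per the labels and file headers, which leaves no batch to test. The deposited intensity values were made by Agilent Feature Extraction 9.5.3.1, per the file headers. Its processed signals had background subtracted and dyes normalized array by array, with floor values where a signal was too low, and mean signals carry no normalization. The deposited log2 values matched the ratio of processed signals, green over red, with a largest difference of 3.11e-06, which makes them ratios of iPS F65 over mix1 with no further centring. Over all probes they had a median of 0.00 for replicate 1, -0.01 for replicate 2 and -0.06 for replicate 3. The other flags deposited by the authors' scanner software were used as given, per the file headers.

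Of 45018 spots per array, 43379 measured genes. Outlier spots (204 to 213 per array) were left out and spots of a probe averaged. A table of RefSeq genes gave probe names by accession (10735 probes), gene number (1222), symbol (5566) or older name (3729), and 19760 kept the file's name. The mean log2 ratio of a probe was set against 0 in R 4.3.3 with lmFit and eBayes of limma 3.58.1, with Benjamini-Hochberg adjustment over 25801 probes. Bounds used levels after Aquantile normalization. In the text, every member probe was named, and from each list up to 5 called genes with the largest and 5 with the smallest ratio, apart from 1 gene of the network list that is counted but not reported here by name. Likeness was the Euclidean distance over the 3 ratios. Members and lists were chosen with earlier results of these data known, so their counts are descriptions. Alternatives changed the background correction (normexp with an offset of 50, with or without replaced local backgrounds, or none), centring, filter, fold limit, outlier spots, input values and replicates. Only 3 arrays stand behind each value, which limits its precision. Tested on simulated ratios for the 25801 probes, 91% of 100 probes changed by a log2 of 1.5 were called correctly. So were 91% of 100 changed by 3, and 1 of 25601 unchanged probes was called. The simulated noise was independent between arrays, with no dye, scaling or background error, and far fewer probes were changed than were called in these data. It therefore cannot show how such errors affect the calls.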

Additional observations from a re-analysis of the deposited data

How the results depend on the processing

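With replicates left out in turn, every call given for the 8 tested probes remained, with log2 ratios of 4.85 to 4.89 for Nr0b1, 2.98 to 3.37 for Sox2, 4.81 to 4.97 and -3.50 to -3.28 for the Sox3 probes, 3.55 to 3.65 for Dppa3, 2.03 to 2.40 for Dppa4, 2.45 to 3.02 for Pou5f1 and -5.50 to -5.22 for Tbx3. Probes called higher then numbered 8003 to 8046 and lower 6130 to 6184, network genes 13 to 14 and 1, fibroblast markers 0 and 11, and leukocyte markers 0 and 9 to 10. Over all genes tested, 30.8% to 31.0% were then higher and 24.3% to 24.5% lower. No paired analysis was possible because the arrays form 1 group and each ratio is already taken within an array.

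Of 8060 probes higher and 6206 lower, normexp and loess gave 4752 and 6605, with backgrounds as given 2790 and 2358, without background subtraction 4263 and 6009, each array's median set to 0 gave 6386 and 7182, probes above background in both channels gave 6031 and 3743, and no fold limit gave 14174 and 10506. The share of higher among called probes was 56.5% as reported, and 41.8%, 54.2%, 41.5%, 47.1%, 61.7% and 57.4% in that order. These scalings moved the median log2 ratio of 0.27 to -0.06, 0.04, -0.04 and 0.00. Of 29 network genes, 14 were higher as reported, beside 31.0% of all genes tested. There were 7 with normexp and loess (beside 18.4%), 5 with backgrounds as given (10.9%) and 7 without subtraction (16.6%). With medians at 0 there were 9 (24.6%), and with both channels above background 11 of 25 (29.1%). Without the fold limit 24 were higher (54.4%) and 4 lower (41.2%).

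With backgrounds as given, the ratios below the threshold were 2.18 for the bright Sox3 probe (limma adjusted p = 0.0598), -0.56 for the dim one (0.271), 0.61 for Pou5f1 (0.243), 0.74 for Dppa3 (0.239), 0.60 for Dppa4 (0.216) and -2.91 for Tbx3 (0.0717). Without subtraction the dim Sox3 probe was at -0.997. The causes were not tested. Bounds from loess signals were 2.49-fold higher for Pou5f1, 2.76-fold and 1.36-fold higher for the Dppa3 probes, and 1.88-fold lower for the dim Sox3 probe. Signal over background limits Esrrb and the mix1 side of Pou5f1 and Dppa3.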

Other observations

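Of 46 listed relatives of the 8 genes 21 were measured, of which 6 were higher and 9 lower in iPS F65, beside 31.0% higher and 24.6% lower over all genes tested. The share of higher relatives was near that background. Of the POU family, Pou3f2, a factor of neural cells, had a log2 ratio of 3.11 ± 0.11 (8.64-fold), Pou3f4 was at least 1.73-fold higher and Pou2f1, which is widely expressed, was at 1.33, while Pou3f3 was at -3.27 ± 0.06 (9.62-fold lower; SD, n = 3). In the Sox family, Sox11 (1.35), Sox6 (at least 1.64-fold) and Sox5 (1.14) were higher. The cartilage factor Sox9 was at least 71.1-fold lower, Sox14 at least 14.4-fold lower, and Sox4 (-1.19) and the neural crest factor Sox10 (-1.16) were lower. Of the T-box family 0 of 5 measured genes were higher and 4 were lower, a small count beside the same shares. Tbx2, the closest relative of Tbx3, was at least 6.43-fold lower, Tbx6 at least 1.43-fold, Tbx15 was at -1.87 and Tbx18 at -1.80. No listed relative among nuclear receptors or Dppa genes was measured.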
